A study of Arabidopsis thaliana with 4 samples.

Results

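The hormone genes described here are 14 Arabidopsis genes taken by name from an array of whole seedlings, out of 13356 genes that have a probe set for a single gene. A gene was taken where its platform symbol began with 1 of 18 prefixes of hormone gene families followed by a digit, dot or hyphen. AT1G22690 and AT1G12010 were added by locus tag, with earlier results of these arrays known. The symbol rule was also chosen with earlier results of these data known. The folds, ranks and calls of all members below are descriptions and no independent support. The prefixes found 7 Aux/IAA genes (IAA18, IAA20, IAA29, IAA30, IAA31, IAA33 and IAA34), 4 GH3 genes (GH3.1, GH3.3, GH3.9 and GH3.17) and the response regulator ARR15. The other 15 prefixes, among them SAUR, ARF, PIN, GA2OX, ERF, JAZ and PYL, matched no single-gene symbol, so the set is mostly auxin genes and holds no abscisic acid (ABA) gene. Each member has 1 probe set, and no gene of another kind carried a matching symbol.

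Seedlings were the Columbia wild type (WT), the Polycomb mutant emf2, WT with 35S::BoEMF2.1 (transWT) and emf2 with 35S::BoEMF2.1 (rescued emf2). All were 7 days old and had grown on sucrose agar in 8 h light and 16 h dark at 21 °C. Only transWT and rescued emf2 had hygromycin in the plates, so the transgene and the antibiotic cannot be told apart. EMF2 belongs to Polycomb repressive complex 2, BoEMF2.1 is a Brassica oleracea gene, and 35S is a viral promoter active in most plant tissues. The labels name neither the emf2 allele nor the number of transgenic lines or of seedlings pooled. EMF2 has no named probe set in the annotation used here, so the labels were not checked by its level. There was 1 array per group, so a ratio of a pair of arrays has no replicate check and no p-value; precision is limited by having so few arrays.

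Auxin acts by joining Aux/IAA repressors to their receptors, which marks the repressors for breakdown and frees the ARF transcription factors. Many Aux/IAA and GH3 genes are themselves switched on by auxin, and GH3 enzymes join free auxin to amino acids, which lowers its level. Cytokinin signals through a phosphorelay that ends in response regulators, whose type-A members such as ARR15 damp the same signal. Gibberellin binds GID1 receptors, and the complex removes DELLA repressors by way of the F-box protein SLY1. Ethylene is made by ACC oxidases and acts through the transcription factor EIN3.

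Values are MAS5 signals, the brightness of a probe set on a linear scale. A signal above 87.6, the 40th percentile over 22746 non-control probe sets, counts here as above the floor. By this measure 8 of the 14 genes were above the floor on at least 1 array: 3 of 7 Aux/IAA genes, 2 of 4 GH3 genes, ARR15 and both genes taken by locus tag. The other 6, which are IAA20, IAA30, IAA33, IAA34, GH3.1 and GH3.9, read between 4.5 and 86.0 on all arrays and have no ratio. IAA30 lay just below the floor in WT, at 86.0, and IAA31 just above it in emf2, at 87.7. Where 1 of the arrays compared read less than the floor, the fold was taken against the floor itself and is given as “at least”. The fold of the measured signals can only be larger, but error in the brighter array can make the true fold smaller.

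**Figure D1:**
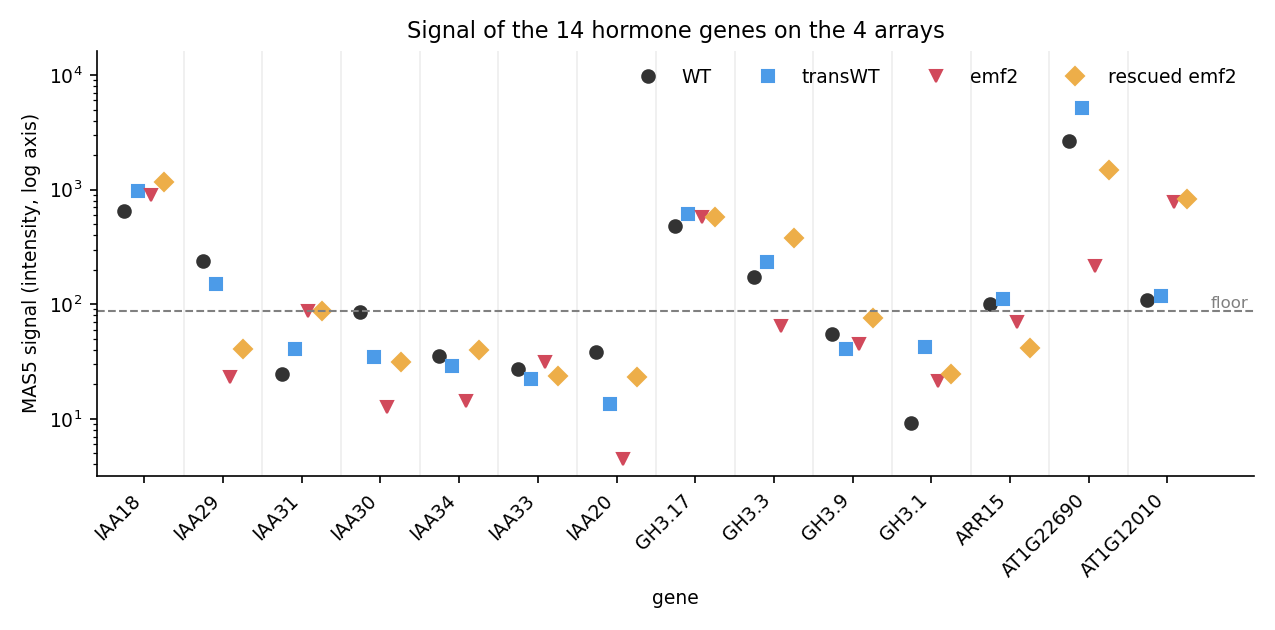
MAS5 signal (intensity, log axis) of each of the 14 hormone genes, with 1 point per array and the floor of 87.6 as a dashed line. AT1G12010 lies at 777.3 and 836.8 on the arrays of the emf2 background and at 108.4 and 118.2 on the others, and 6 genes lie wholly below the floor.

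The clearest separation by background was that of AT1G12010. This gene was taken in with the ethylene genes, but the annotation used here gives it no name and its role was not checked. Its signal was 108.4 in WT and 118.2 in transWT, against 777.3 for emf2 and 836.8 for rescued emf2. Both arrays of the emf2 background were high and both of the wild-type background were low, with and without the transgene. The signal was 7.17-fold higher in emf2 than in WT, the 46th highest ratio of 14653 probe sets tested. Rescued emf2 stood 7.08-fold above transWT, the 5th highest of 14250. These ratios come from pairs with no array in common, but the gene was chosen with earlier results of these arrays known. Its ranks are therefore no independent support. With the transgene the signal was 1.09-fold that of WT in transWT and 1.08-fold that of emf2 in rescued emf2. Rescued emf2 thus still stood 7.72-fold above WT. The size of these folds depends on the floor, since WT and transWT read just above it. With the floor at the 60th percentile, which lies above both, the log2 ratios were bounds of 1.59 in emf2 over WT, against 2.84, and 1.69 in rescued emf2 over transWT and over WT, against 2.82 and 2.95. The gene before it on the chromosome, AT1G12000, read 1859.1 in WT and 1023.9 in transWT, against 1326.9 for emf2 and 1120.0 for rescued emf2, and did not share this pattern.

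AT1G22690 went the other way. It was taken in with the gibberellin-regulated GASA genes, which encode small cysteine-rich peptides, but it too has no name in the annotation used here. It was likewise chosen with earlier results of these arrays known, so its ranks are no independent support. Its signal was 2681.2 in WT and 5206.0 in transWT, against 214.9 for emf2 and 1487.6 for rescued emf2. The emf2 array was lowest, and each array with the transgene was above its counterpart without it. Against WT, the emf2 signal was 12.5-fold lower, the 29th lowest ratio of those tested, and in rescued emf2 it was 3.50-fold lower than in transWT, the 43rd lowest. The transgene went with a 1.94-fold higher signal in the wild type and a 6.92-fold higher one in emf2, the latter the 48th highest of 14122. On the log2 scale these are 0.96 and 2.79, a difference of 1.83 that has no test. Rescued emf2 stayed 1.80-fold below WT. The gene after it, AT1G22700, read 1292.5, 954.0, 775.8 and 846.3 in the same order of groups, within 2-fold throughout.

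Markers of green tissue ranked the 4 arrays as AT1G22690 did at its lowest and highest points. The summed signal of the 6 named genes of a list of 17 (RCA, LHCB4.2, LHCB4.3, PSBY, PRK and SBPASE) was 65160 in WT and 89428 in transWT, against 35368 for emf2 and 77747 for rescued emf2. For 3 named genes of a list of 16 root markers (PYK10, EXPA7 and EXPA18) it was 15775, 18282, 18206 and 18754. In emf2 over WT, 3 of the 6 green markers (PSBY, PRK and SBPASE) were at least 2-fold lower, against 11.1% of all probe sets tested. In rescued emf2 over emf2 5 of 6 were at least 2-fold higher, against 5.85%. PSBY in the former (2.01-fold) and RCA in the latter (2.0-fold) sat at the threshold. Both marker lists were written with earlier results of these data known, so these counts are no independent support. Of the root markers, EXPA7 and EXPA18, expansins of root hairs, exceeded WT by more than 2-fold in emf2 and were more than 2-fold lower in rescued emf2 over emf2 (log2 -1.07 and -1.57). The root sum is mostly PYK10, with 15178.2 of the 15775 in WT, and PYK10 differed by at most 1.18-fold. No marker on either list with a probe set here was at 0, and the flower organ list of 9 genes has none that is named here. The part of tissue make-up in the hormone gene results was not tested. In whole seedlings, fewer cells of a type and less RNA per cell cannot be told apart.

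Among the Aux/IAA genes, IAA29 was the one past 2-fold. IAA29 is known to be raised in shade by PIF transcription factors. It read 236.6 in WT and 151.6 in transWT, against 23.1 for emf2 and 40.3 for rescued emf2, so both arrays of the wild-type background were above the floor and both of the emf2 background below it. It was at least 2.70-fold lower in emf2 than in WT and at least 1.73-fold lower in rescued emf2 than in transWT. Rescued emf2 was also at least 2.70-fold below WT. In transWT it was 1.56-fold lower than in WT. The bounds depend on the floor. At the 25th percentile the log2 ratio was -2.95 in emf2 over WT and -1.91 in rescued emf2 over transWT, and at the 60th all 4 signals of IAA29 lay below the floor, with no ratio.

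IAA18, which carries the degron through which auxin removes Aux/IAA proteins, read 647.2 in WT and 980.5 in transWT, against 892.8 for emf2 and 1166.5 for rescued emf2. WT was lowest and rescued emf2 highest, and no ratio reached 2-fold. The largest was 1.80-fold, in rescued emf2 over WT; with each array scaled to its median it passed 2-fold (log2 1.1). IAA31, in which that degron is incompletely conserved, read 24.7 in WT and 40.9 in transWT, against 87.7 for emf2 and 87.4 for rescued emf2. Its higher values were on the emf2 background but sat at the floor, so no fold is given. With the floor at the 25th percentile its log2 ratio of emf2 over WT was 1.51. Of the Aux/IAA genes below the floor on every array, IAA20 read 38.3, 13.6, 4.5 and 23.2 in WT, transWT, emf2 and rescued emf2, and IAA34 read 35.1, 29.0, 14.2 and 39.9. IAA33 read 27.3, 22.2, 31.3 and 23.5. IAA30 read 86.0, 34.5, 12.8 and 31.4. The emf2 array was the lowest for IAA20, IAA30 and IAA34 and the highest for IAA33, all at levels where MAS5 ratios are not read here.

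GH3.3, which conjugates auxin to amino acids and is an early auxin-response gene, had its lowest signal in emf2 and its highest in the rescued line. It read 172.6 in WT and 233.7 in transWT, against 64.1 for emf2 and 376.0 for rescued emf2. The emf2 array was the one below the floor. The emf2 signal was at least 1.97-fold below WT. Against emf2, rescued emf2 was at least 4.29-fold higher. Rescued emf2 was also 2.18-fold above WT and 1.61-fold above transWT. With the floor at the 60th percentile, which lies above the emf2 and WT signals, the ratios over emf2 and over WT were bounds (log2 0.54 in both). Neither passed 2-fold. With the floor at the 25th percentile the ratio of emf2 over WT did (-1.43). In the wild type the transgene went with a 1.35-fold higher signal. The emf2 background thus had a log2 ratio of -0.98 without the transgene and 0.69 with it, opposite in sign, and this difference was not tested.

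GH3.17, which joins auxin to glutamate, was the steadiest of the genes above the floor. It read 480.5 in WT and 612.3 in transWT, against 579.2 for emf2 and 582.7 for rescued emf2, and its largest ratio was 1.27-fold, in transWT over WT. GH3.9 read 55.3, 40.8, 44.8 and 75.9 in WT, transWT, emf2 and rescued emf2, and GH3.1 read 9.2, 42.5, 21.4 and 24.8, all below the floor. WES1, the gene also called GH3.5, does not fall under the prefixes. It read 716.7 in WT and 977.4 in transWT, against 982.7 for emf2 and 1095.3 for rescued emf2, with WT lowest and rescued emf2 highest as for IAA18.

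ARR15, a type-A response regulator of cytokinin signalling, read 101.1 in WT and 111.8 in transWT, against 70.4 for emf2 and 41.2 for rescued emf2. The emf2 background was below the floor and the wild-type background just above it. It was at least 1.15-fold lower in emf2 than in WT and at least 1.28-fold lower in rescued emf2 than in transWT. On the log2 scale these are -0.21 and -0.35, beside errors of 0.27 and 0.35 (SD) taken below from genes with several probe sets. With the floor at the 25th percentile the log2 ratio of rescued emf2 over transWT was -1.44. RR16, another type-A regulator also called ARR16, was looked up after the values had been seen because the annotation lists it without the leading letter. It read 285.3, 234.6, 130.4 and 98.1 in the same order, above the floor throughout. Against WT, RR16 was 2.19-fold lower in emf2, and against transWT it was 2.39-fold lower in rescued emf2. RR18, RR19, RR22 and RR23 were below the floor on all arrays.

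**Figure D2:**
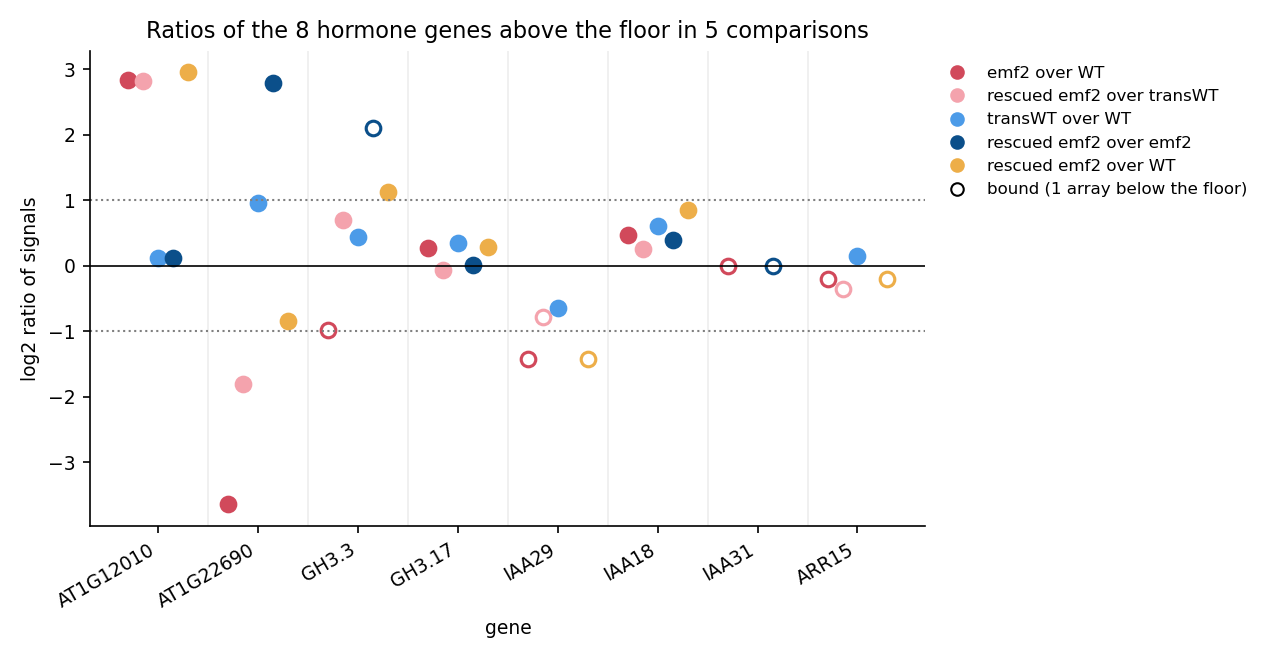
Log2 ratio of signals in 5 comparisons for the 8 hormone genes above the floor on any array; dotted lines mark 2-fold and open points are bounds. AT1G12010 is near 2.84 and 2.82 in both comparisons of the emf2 background, while AT1G22690 runs from -3.64 in emf2 over WT to 2.79 in rescued emf2 over emf2.

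Across the 5 comparisons, between 0 and 3 of the hormone genes tested passed 2-fold. In emf2 over WT, 1 of 8 tested was at least 2-fold higher (AT1G12010) and 2 were at least 2-fold lower (AT1G22690 and IAA29), against 7.34% and 11.1% of all 14653 probe sets tested. Their median log2 ratio was -0.10, beside -0.052 over all tested. In rescued emf2 over transWT, 1 of 7 was higher (AT1G12010) and 1 lower (AT1G22690), against 2.26% and 2.99% of 14250, with a median of -0.07 beside -0.03. AT1G12010 and AT1G22690 were added with earlier results of these arrays known, so their calls cannot be weighed against these shares. Without them, IAA29 was the only member called in emf2 over WT, and no member was called in rescued emf2 over transWT. The other members were also chosen with earlier results of these data known, so the IAA29 call is no independent support either.

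For the transgene, 0 of 7 hormone genes passed 2-fold in transWT over WT, where 3.88% of 14620 probe sets were higher and 5.32% lower. The nearest was AT1G22690 at a log2 ratio of 0.96, and it passed with each array scaled to its median (1.11). The median of the 7 was 0.35, beside -0.074 over all tested. In rescued emf2 over emf2, 2 of 6 were higher (AT1G22690 and GH3.3) and 0 lower, against 5.85% and 4.97% of 14122, with a median of 0.25 beside -0.062. In rescued emf2 over WT, 2 of 7 were higher (AT1G12010 and GH3.3) and 1 lower (IAA29), against 5.91% and 9.90% of 14593, with a median of 0.28 beside -0.102. With so few genes, 1 gene moves each share by more than the background share itself. Leaving out AT1G22690 and AT1G12010, chosen with earlier results known, GH3.3 was the only gene called in rescued emf2 over emf2. In rescued emf2 over WT it was then GH3.3 and IAA29. The rule that took these genes was also chosen with earlier results known, so their calls are no independent support.

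The split of all probe sets into higher and lower depends on the scaling. With each array scaled to its median, 11.0% were higher and 8.01% lower in emf2 over WT. It was 2.95% and 2.29% in rescued emf2 over transWT, 5.57% and 3.66% in transWT over WT, and 9.68% and 5.77% in rescued emf2 over WT. After cyclic loess the split was 4.68% and 4.27% in transWT over WT and 7.21% and 7.23% in rescued emf2 over WT, and after quantile normalization it was 7.33% and 7.54% in the latter. Median scaling moved the median log2 ratio of all probe sets from -0.05 to 0.15 in emf2 over WT and from -0.10 to 0.14 in rescued emf2 over WT. The hormone gene differences of 2-fold or more named here kept their direction under these scalings.

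Arrays of the emf2 background and of the transgene can each be read in separate pairs. For the background, 7 hormone genes were tested in both pairs, and 5 had the same sign in emf2 over WT and rescued emf2 over transWT, against 73.5% of 13792 probe sets. For IAA29 and ARR15, which were below the floor on both arrays of the emf2 background, the floor itself fixed the sign in both pairs, so these are no sign of agreement. GH3.3 and GH3.17 had opposite signs, but for GH3.17 this rests on a log2 ratio of -0.07 in rescued emf2 over transWT. With median scaling that ratio was 0.02. AT1G12010 and AT1G22690 were past 2-fold the same way in both pairs, as were 3.57% of all probe sets. Both were added with earlier results of these arrays known, so this is no independent agreement. For the transgene, all 5 genes tested in both pairs had the same sign (67.5% of all), and 0 of them passed 2-fold in both (3.40% of all). GH3.3 was below the floor in emf2, which fixed its sign in rescued emf2 over emf2. GH3.17 had a log2 ratio of 0.01 in that comparison, and AT1G12010 had 0.12 and 0.11. These lie within the error of 0.33 (SD) taken below from genes with several probe sets, so the shared signs are no sign of agreement for these genes.

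**Figure D3:**
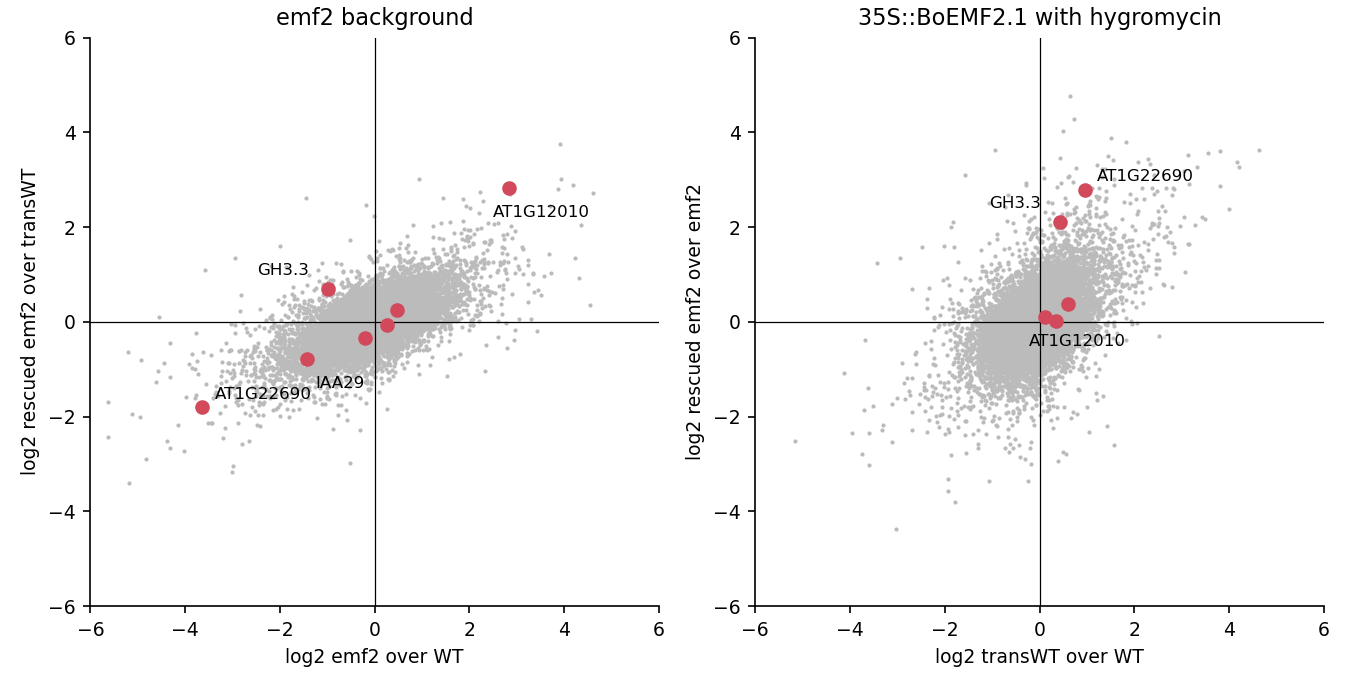
Log2 ratios of all probe sets above the floor (grey) and of hormone genes (red) in pairs that share no array: left, emf2 over WT against rescued emf2 over transWT; right, transWT over WT against rescued emf2 over emf2. AT1G12010 and AT1G22690 lie far out on the left, at 2.84 and -3.64, and AT1G22690 and GH3.3 stand high on the right, at 2.79 and 2.1.

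Only a fit that takes each effect as equal in both pairs gives these arrays a test. Its residual is how far the effects differ between the pairs, moderated over probe sets. With 1 array per group, its SE and p-values cannot separate that difference from variation between arrays or seedlings. It was run with limma over the 12145 probe sets that passed the floor on every array, with 1 residual degree of freedom, and 4 hormone genes entered it. AT1G12010 and AT1G22690 were added to the set by locus tag with earlier results of these arrays known, so their p-values here are not independent support. The log2 ratios of AT1G22690 differed between the pairs, at -3.64 and -1.81 for the background and 0.96 and 2.79 for the transgene. A single effect averages over these. AT1G12010 had a background effect of 2.83 on the log2 scale (SE 0.206, limma, unadjusted p 2.22e-05, adjusted p = 0.0847). AT1G22690 had a background effect of -2.72 (SE 0.447, limma adjusted p = 0.102) and a transgene effect of 1.87 (SE 0.447, limma adjusted p = 0.132). IAA18 and GH3.17 had background effects of 0.36 and 0.10 and transgene effects of 0.49 and 0.18, with limma adjusted p between 0.262 and 0.802. None of the 4 passed an adjusted p of 0.05 in limma. An unadjusted limma p under 0.05 was reached by 2 for the background (AT1G12010 and AT1G22690) and 1 for the transgene (AT1G22690). Both are genes added by locus tag, so these counts are no independent support. Of all 12145 probe sets, 3054 reached that p for the background and 2512 for the transgene. Against such numbers, counts among 4 genes cannot be read as an excess. Over all probe sets 0% were called higher and 0% lower for the background, and 0.0494% were called higher and 0.00823% lower for the transgene. With each array scaled to its median, AT1G12010 and AT1G22690 passed for the background (limma adjusted p = 0.0173 and 0.0377). In that setting 152 of all 12146 probe sets were called higher and 94 lower, so the change was not particular to these genes. Over the other settings in which it was fitted, the limma adjusted p was 0.0697 to 0.135 for AT1G12010 and 0.0883 to 0.147 for AT1G22690.

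The other genes of the hormone pathways were read from lists of 194 symbols. Of these, 17 had a named probe set: 5 of 44 for auxin, 1 of 34 for cytokinin, 6 of 23 for gibberellin, 2 of 29 for ethylene, 3 of 21 for jasmonate and 0 of 43 for ABA. YUC4, YUC6 and JMT were below the floor on all arrays, which left 14. In each of the 5 comparisons all 14 were tested and 0 were at least 2-fold higher or lower. Over all probe sets the shares ran from 2.26% higher and 2.99% lower in rescued emf2 over transWT to 7.34% and 11.1% in emf2 over WT. Median log2 ratios over the 14 were 0.06 in emf2 over WT, 0.06 in rescued emf2 over transWT, -0.04 in transWT over WT, -0.20 in rescued emf2 over emf2 and -0.01 in rescued emf2 over WT. HAT2, an auxin-induced homeodomain gene, came nearest on the upper side, at 794.1 in WT and 509.4 in transWT, against 829.2 for emf2 and 989.5 for rescued emf2, where transWT was low. Its log2 ratio in rescued emf2 over transWT was 0.96, and 1.05 with median scaling. YUC2, an enzyme of auxin synthesis, read 88.6, 123.9, 38.8 and 92.1 in WT, transWT, emf2 and rescued emf2, and like GH3.3 had its lowest signal in emf2. WT and rescued emf2 read just above the floor for YUC2, so its log2 ratios were bounds of -0.02 in emf2 over WT and 0.07 in rescued emf2 over emf2. With the floor at the 25th percentile they were -1.19 and 1.25.

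UGT76C2, a glucosyltransferase that inactivates cytokinin, read 632.9 in WT and 606.6 in transWT, against 326.1 for emf2 and 324.2 for rescued emf2. Both arrays of the emf2 background were low, by 1.94-fold against WT and 1.87-fold against transWT. The gibberellin receptors stayed within 2-fold: GID1A read 1164.8 in WT and 853.9 in transWT, against 1447.8 for emf2 and 966.3 for rescued emf2, highest in emf2. GID1B read 284.9, 342.4, 446.0 and 344.6 and GID1C 298.5, 248.4, 267.5 and 166.9 in the same order. SLY1 read 701.3, 575.5, 1004.2 and 586.3, and SPY, an enzyme that modifies DELLA proteins, 362.6, 308.3, 481.4 and 395.8; both were highest in emf2, as were GID1A and GID1B. XERICO, a RING-finger gene downstream of DELLA proteins, was higher on the arrays without the transgene, with 1183.4 (WT) and 1085.8 (emf2), than on those with it, with 715.7 (transWT) and 764.3 (rescued emf2).

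EIN3 read 1713.1 in WT and 1729.5 in transWT, against 1545.1 for emf2 and 1622.5 for rescued emf2, level on all arrays beside the separation of AT1G12010. RTE1, which acts on an ethylene receptor, read 393.0, 459.6, 413.1 and 539.6. Of jasmonate genes, the transcription factor MYC3 read 362.4, 434.0, 559.8 and 513.6 in WT, transWT, emf2 and rescued emf2, higher on the emf2 background, and MYC4 read 162.2, 158.8, 139.5 and 99.4. No ratio of these 4 genes reached 2-fold.

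**Figure D4:**
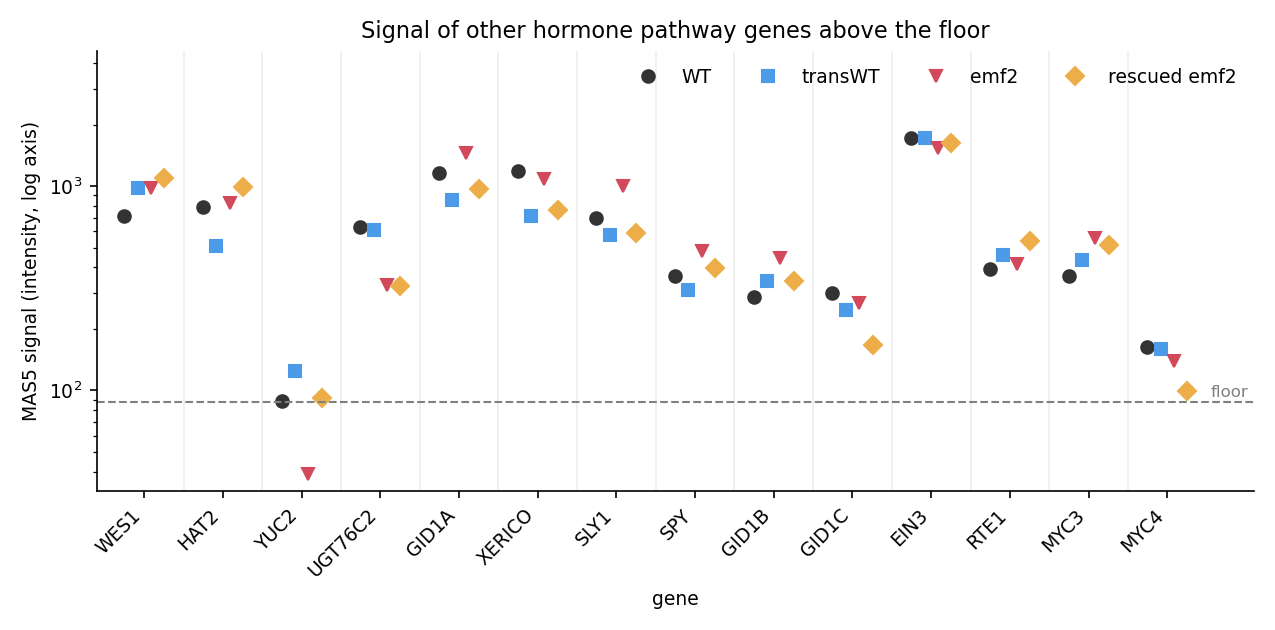
MAS5 signal (intensity, log axis) of the 14 other hormone pathway genes above the floor, with 1 point per array and the floor of 87.6 as a dashed line. UGT76C2 separates by background, near 632.9 and 606.6 against 326.1 and 324.2, and no gene shown reached 2-fold in any comparison with this floor.

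The arrays differed in other ways along the transgene. Hybridization controls (18 probe sets) had a median ratio of 1.21-fold in transWT over WT and 1.32-fold in rescued emf2 over emf2. For the 7 of 27 poly-A control probe sets above the floor it was 1.92-fold and 2.38-fold. Between backgrounds the poly-A controls stood at 1.05-fold in emf2 over WT and 1.64-fold in rescued emf2 over transWT. The part of these differences in the higher signals of AT1G22690 and GH3.3 with the transgene was not tested. Where a gene had several probe sets above the floor everywhere (43 genes), their disagreement put the error of a log2 ratio between 0.27 and 0.38 (SD). Variation between plantings is not part of that error.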

How the data were processed

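RNA of whole seedlings was hybridised to 1 Affymetrix array per group. The deposited values are intensity, MAS5 signals on a linear scale, per the submitters' processing notes; its version and settings are not stated there. The 2%-trimmed mean was 500.05 on every array, so the deposited signals already share a scale. Arrays hold no counts and no depth.

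Signals were scaled to that trimmed mean, floored at the 40th percentile (87.6) and compared as log2 ratios of single arrays, counted at 2-fold where the higher of both signals passed the floor. The additive fit used limma 3.58.1 in R 4.3.3 (lmFit, eBayes, Benjamini-Hochberg over the probe sets fitted). It took log2 signals of probe sets above the floor on every array. Its test on simulated data used additive effects and the same spread for every probe set, which these arrays need not follow. Ratios were computed with Python 3.11.15.

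Of 22810 probe sets, 64 are controls, 13513 name 1 gene, 503 several and 8794 none; 13436 matched a current gene ID (TAIR10.1, names and gene order only). Genes past 2-fold were named, with the members of each family. Members, gene lists and the named-gene rule were chosen with earlier results of these data known. Alternatives were 4 scalings, other floors and thresholds.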

Additional observations from a re-analysis of the deposited data

Results flagged for a closer look

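GH3.3 had emf2 background ratios of opposite sign in the pairs without and with the transgene: log2 -0.98 in emf2 over WT, which is a bound because the emf2 array was below the floor, and 0.69 in rescued emf2 over transWT. Each value rests on 1 array per group, and the difference was not tested.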

How the results depend on the processing

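Of 35 log2 ratios of single hormone genes, 26 kept their side of 2-fold under every scaling and floor at which they could be tested and 9 did not. None past 2-fold reversed its sign. Below 2-fold signs could change, as for GH3.17 in rescued emf2 over transWT (-0.07, and 0.02 with median scaling). Leaving the values as deposited could change little, since the trimmed mean was already 500.05 on every array. The 14 changed values, of 232, came from floors, except AT1G22690 in transWT over WT (1.11) and IAA18 in rescued emf2 over WT (1.1) with arrays scaled to their medians. At the 60th percentile floor GH3.3 no longer passed 2-fold in rescued emf2 over emf2 and over WT, where its ratios were bounds (0.54 in both). Counts of members past 2-fold, higher and lower, moved as follows. They are given out of the members tested, with the shares of all probe sets higher and lower in brackets. From 1 and 2 of 8 in emf2 over WT they became 2 and 4 of 13 at a 25th percentile floor (7.73% and 12.9%). They were 1 and 1 of 4 at a 60th percentile floor (6.49% and 8.61%) and 3 and 6 of 14 without a floor (10.8% and 16.2%). When both arrays had to pass the floor they were 1 and 1 of 4 (7.01% and 10.0%). They were 1 and 3 of 8 at 1.5-fold (16.7% and 22.8%) and 1 and 1 of 8 at 3-fold (2.56% and 3.92%). From 1 and 1 of 7 in rescued emf2 over transWT they became 2 and 3 of 12 at the 25th percentile (2.84% and 4.27%). They were 2 and 3 of 14 without a floor (7.3% and 10.3%) and 2 and 2 of 7 at 1.5-fold (8.51% and 11.6%). From 0 and 0 of 7 in transWT over WT they became 1 and 0 of 7 with median scaling (5.57% and 3.66%). They were 0 and 1 of 13 at the 25th percentile (4.93% and 6.3%) and 1 and 2 of 14 without a floor (11.9% and 9.25%). At 1.5-fold they were 2 and 1 of 7 (10.9% and 16.2%). From 2 and 0 of 6 in rescued emf2 over emf2 they became 1 and 0 of 5 at the 60th percentile (5.33% and 4.04%). They were 1 and 0 of 4 with both arrays past the floor (5.31% and 4.77%) and 5 and 0 of 14 without a floor (12.8% and 8.99%). In rescued emf2 over WT (2 and 1) they were 3 and 1 with median scaling, 3 and 3 with the 25th percentile floor, 1 and 0 with the 60th, 4 and 3 without a floor, 2 and 0 with both arrays past the floor, 3 and 2 at 1.5-fold, and 1 and 0 at 3-fold. The median log2 ratio of members moved by more than the probe set error in emf2 over WT, to 0.37 at the 60th percentile and with both arrays past the floor and -0.41 without a floor, and in rescued emf2 over WT to 0.85 with both arrays past the floor. In these settings more or fewer members were tested. With median scaling the additive fit called 1 member higher and 1 lower for the background, beside 152 higher and 94 lower of all 12146 probe sets. In the other settings it called 0 members. No member has several probe sets or another kind of protein, so those alternatives were not run. No paired analysis was possible because each group has 1 array. Signals near the floor limit IAA29, IAA31, ARR15 and the 6 genes below it. The calls of GH3.3 and the size of the AT1G12010 ratios depend on the floor too.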
